A study of Eohaustorius estuarius with 16 samples.

Results

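On arrays of the amphipod Eohaustorius estuarius, 46 contigs had a higher signal on each of the 8 arrays from cyfluthrin-exposed animals than on any of the 8 control arrays. They were selected on that comparison of measured values: the lowest cyfluthrin value had to exceed the highest control value, and the probe had to be above background on all 8 cyfluthrin arrays. Of 8507 contigs on the array, 6039 met the second condition, and the 46 are 0.762% of these. Because the contrast chose them, their differences between groups are described here without a test, and nothing is read from that share. Contigs are assembled transcript sequences, each measured by 1 probe. They carry identifiers that begin with eohaus_trim.v2-, shortened here to the part after that prefix (contig_3691), and no gene names, so no role is given to any of them.

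Whole amphipods were held for 10 days on sediment spiked with solvent (control) or with cyfluthrin at a nominal 1.6 µg/kg, and total RNA of whole bodies was hybridised to single-colour Agilent arrays. The series compares array data between 6 laboratories, and the 16 arrays are those of laboratory A, 8 in each group. The labels give no age, sex or strain of the animals, nor whether the samples within a group were exposed separately, and spreads and p-values measure only the variation between these samples. RNA was purified on columns in all laboratories but 1, and labelled with Cy3.

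Cyfluthrin belongs to the pyrethroid insecticides, which bind voltage-gated sodium channels of nerve cells and keep them open for longer. Eohaustorius estuarius burrows in estuarine sediment and is used to test sediment for toxicity. In arthropods, exposure to such compounds can be followed by changes in transcripts for detoxification enzymes, cuticle proteins and stress proteins, but without gene names none of these groups could be counted here. In RNA of whole animals, more cells of a type and more RNA per cell cannot be told apart.

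Controls took row 1 and cyfluthrin arrays row 2 on both slides, so the treatment and the row cannot be told apart. Each of the 2 slides held 4 arrays of either group, with replicates 1 to 4 on slide 1 and replicates 5 to 8 on slide 2. The 75th percentile of unscaled signal ran from 274 to 950 units. Cyfluthrin replicate 7 had the highest value and also the brightest negative control spots (median 73.5 units, against 37.5 to 51.0 on the other arrays). Precision is limited by the number of arrays.

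The 46 contigs fell into 3 size classes. In 27 the difference of group means was 3.01 to 4.29 log2 units (median 3.74, or 13.4-fold), in 6 it was 1.56 to 2.29 (median 1.68, or 3.20-fold), and in 13 it was 0.33 to 0.83 (median 0.46, or 1.37-fold). The limits between classes are the 2 widest steps between neighbouring differences, 3.01 to 2.29 and 1.56 to 0.83, and were set after the values had been seen. The next step, 2.28 to 1.72, was 0.557 wide, against 0.727 and 0.726. The classes hold for this processing alone. With the normexp correction described further on, the lowest difference among the 27 was 0.85, and 10 of the 46 had at least 3. With a floor of 20 units the lowest among the 27 was 2.15. Values here and below are log2 of scaled signal. The median difference was 3.43 over the 46 contigs, 0.04 over the 6039 that met the signal condition and 0.08 over the 7552 used in the slide fits described further on.

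**Figure D1:**
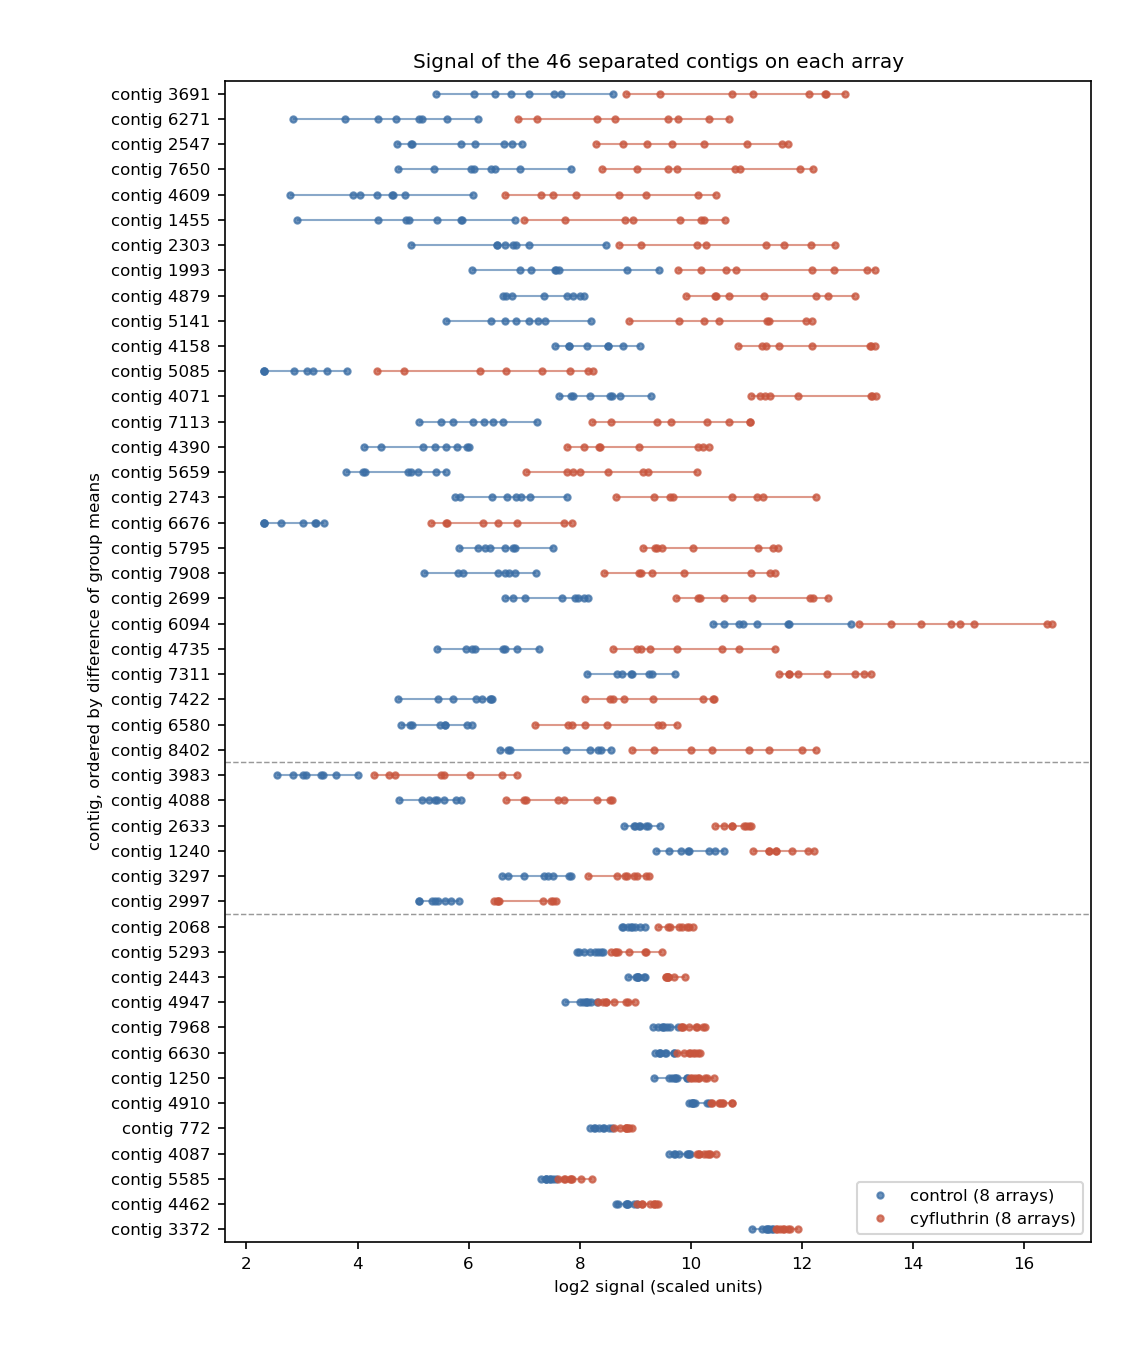
Log2 signal (horizontal axis, scaled units) of each of the 46 contigs (vertical axis, ordered by difference of group means, largest at the top) on the 8 control arrays (blue) and the 8 cyfluthrin arrays (red), with lines spanning each group's range; dashed lines separate the 3 size classes. In the class of 27 contigs differences of means are 3.01 or more, and in the bottom class of 13 they are at most 0.83.

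The 10 contigs of largest difference were all in the first class, with differences of 3.88 to 4.29 log2 units. Signal of contig_3691, the largest, was 5.42 to 8.60 on control arrays (median 6.92) and 8.84 to 12.78 on cyfluthrin arrays (median 11.63), a difference of means of 4.29 and 19.5-fold. The groups came within 0.235 of each other, since control replicate 4 was by far the highest control (the next was 7.66) and cyfluthrin replicate 4 the lowest cyfluthrin array. For contig_6271 signal was 2.84 to 6.16 (median 4.90) on control arrays and 6.88 to 10.69 (median 9.11) on cyfluthrin arrays, with a gap of 0.723 between the groups. Controls of contig_6271 were above background on 5 of 8 arrays, so part of its control range lies near the limit of measurement.

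Contig_2547 had controls of 4.71 to 6.96 (median 5.99) and cyfluthrin arrays of 8.29 to 11.76 (median 9.95), a difference of 4.20 with a wider gap of 1.33. Contig_7650 had controls of 4.72 to 7.84 (median 6.25) and cyfluthrin arrays of 8.39 to 12.21 (median 10.28), a difference of 4.10. In both, replicate 4 gave the nearest array on either side. Of the other members of the 10, contig_4609, contig_1455, contig_2303, contig_1993 and contig_5141 repeated that placing, with gaps of 0.151 (contig_1455) to 0.683 (contig_5141). The exception was contig_4879, with controls of 6.63 to 8.08, cyfluthrin arrays of 9.91 to 12.97 and a gap of 1.83, where control replicate 6 was the highest control.

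Of the 5 widest gaps, 4 belonged to contigs whose SD over control arrays was below the median of the class, 0.665, and 1 to a contig among the 10 of largest difference. Contig_6676 had the widest gap, 1.94, with controls of 2.32 to 3.39 and cyfluthrin arrays of 5.33 to 7.86. No control array was above background for it, and 3 controls sat at the floor of 5 scaled units. Contig_7311 followed with a gap of 1.87, from controls of 8.13 to 9.72 (median 8.93) to cyfluthrin arrays of 11.59 to 13.25 (median 12.20). Its SD over cyfluthrin arrays was 0.676, where the class had a median of 1.15. Gaps of contig_4071 (1.79) and contig_4390 (1.77) complete the 5 widest with contig_4879.

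Contig_6094 had the highest mean on cyfluthrin arrays, 14.79 ± 1.23 against 11.30 ± 0.808 on control arrays (SD, n = 8 each). Its groups came within 0.147 of each other, the narrowest gap of the class. Control replicate 4 (12.89) was the nearest control, and the nearest cyfluthrin array was replicate 7 (13.04), which was not the lowest for most of the class. The other 4 contigs with the highest means on cyfluthrin arrays were contig_7311 (12.36), contig_4158 (12.13), contig_4071 (12.11) and contig_3372 (11.69), the last from the class of small differences. A higher level of one probe than another is not read as a higher level of its transcript.

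The 27 contigs of large difference shared 1 pattern over the arrays. Averaged over them, log2 signal on control replicates 1 to 4 was 5.48, 5.80, 5.92 and 7.42, and on control replicates 5 to 8 it was 6.56, 6.70, 6.59 and 6.89. On cyfluthrin replicates 1 to 4 it was 11.53, 11.42, 9.11 and 8.60, and on cyfluthrin replicates 5 to 8 it was 9.57, 10.42, 9.53 and 11.16. Cyfluthrin replicates 1, 2 and 8 were thus high and replicates 3 and 4 low. That these means do not overlap between the groups is fixed by the rule. The range of these means within the cyfluthrin group was 2.94 log2 units, or 7.66-fold, and within the controls 1.94, or 3.84-fold.

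**Figure D2:**
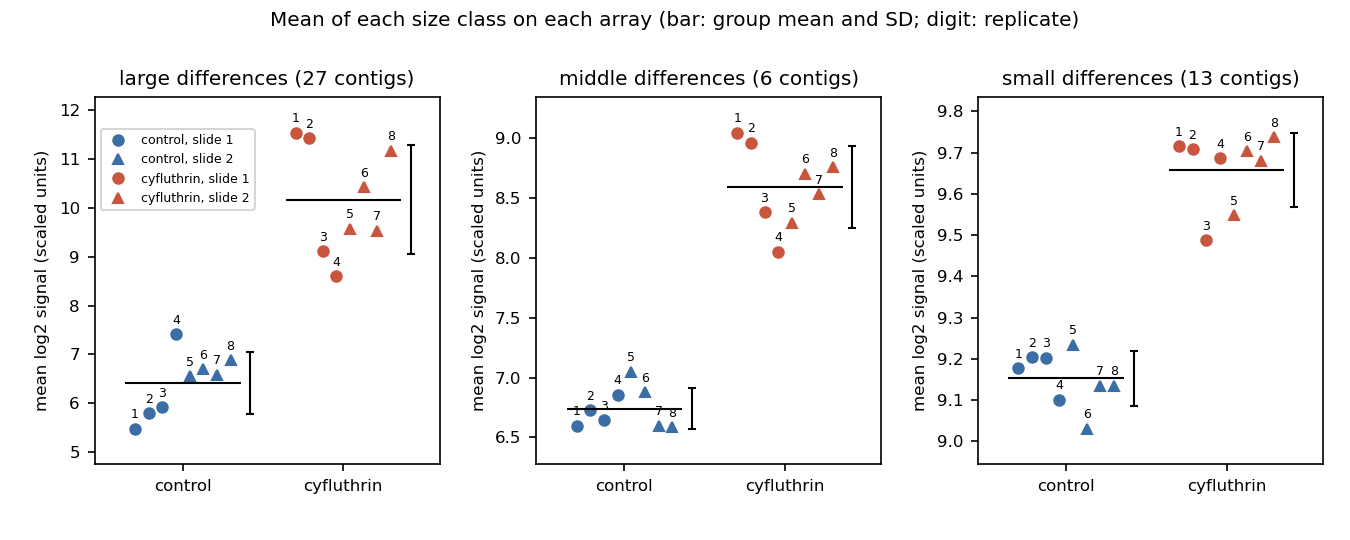
Mean log2 signal (vertical axis, scaled units; a separate scale in each panel) of the 27, 6 and 13 contigs of large, middle and small difference on each array, with the replicate number above each point, circles for slide 1 and triangles for slide 2, and a line and bar for group mean and SD (n = 8). Among large differences, control replicate 4 (7.42) is the highest control and cyfluthrin replicate 4 (8.60) the lowest cyfluthrin array.

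Single arrays set most of the gaps in the class. Control replicate 4 was the highest control in 21 of the 27 contigs, and cyfluthrin replicate 4 the lowest cyfluthrin array in 25. Both lay on slide 1, in the same slide column. Without control replicate 4 the median gap of the class widened from 1.12 to 1.60, and without cyfluthrin replicate 4 to 1.72. Leaving out an array can only keep or widen a gap, so only the size of the change is described. The 75th percentile of unscaled signal was 317, 274, 370 and 333 units on cyfluthrin replicates 1 to 4 and 577, 512, 950 and 430 on replicates 5 to 8. Replicates 1 and 2, high for this class, thus had the lowest percentiles of the group, but replicate 4, lowest for the class, had the next lowest. Among controls, replicate 4, high for the class, had the lowest percentile (301 units). Control replicates 1 and 2, low for the class, had 333 and 336 units. The part of brightness in the pattern was not tested.

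Spread was larger on the cyfluthrin side throughout the class. The SD over cyfluthrin arrays exceeded that over control arrays in 27 of 27 contigs (medians 1.15 and 0.665). This held in 4 of 6 contigs of middle and 10 of 13 of small difference, and in 61.1% of the 6039 contigs. The 27 contigs share their arrays and 1 pattern, so they are not separate observations. In contig_5085 and contig_6676 some controls were at the floor, which limits the SD over control arrays. Contig_5085, contig_3691 and contig_2303 had the largest SDs over cyfluthrin arrays, at 1.48, 1.48 and 1.42. The 3 smallest were 0.10 in contig_772, 0.114 in contig_2443 and 0.117 in contig_4087, all of small difference.

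**Figure D3:**
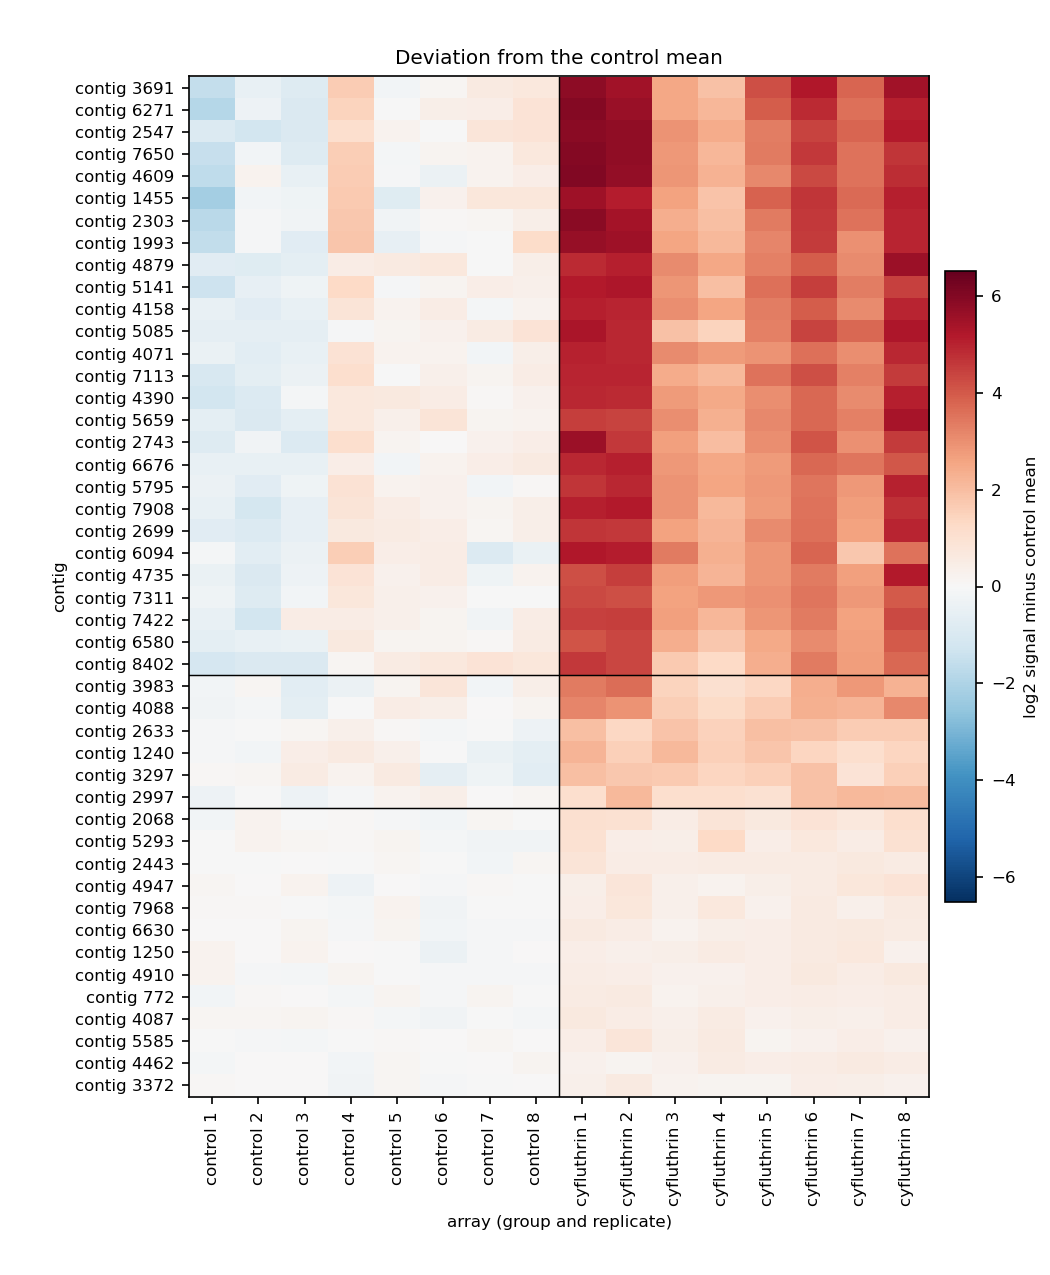
Log2 signal of each contig (rows, in the order of differences) on each of the 16 arrays (columns) minus the contig's mean over the 8 control arrays, from blue (lower) to red (higher); black lines separate the groups and the size classes. Cyfluthrin replicates 1, 2 and 8 are darkest in the rows of large difference, and control replicate 4 is the reddest control in most of them.

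Within the shared pattern the contigs of large difference parted in detail, described here after the values had been seen. In 13 of the 27, control replicate 1 lay below control replicate 2 (median −1.04, lowest −2.03 in contig_1455), and in 12 it lay above (median 0.32, highest 0.74 in contig_7422). In contig_5085 and contig_6676 both arrays were at the floor. Control replicate 1 was also near the floor in contig_1455 (2.90), contig_4609 (2.785) and contig_6271 (2.84), which were above background on 7, 5 and 5 control arrays. It was not in contig_2303, with 4.97 on that array and −1.68 between the 2 arrays. The 13 also had the larger excess of control replicate 4 over the mean of the other controls (median 1.65, against 0.95 in the 12) and the larger span from cyfluthrin replicate 4 to 1 (median 3.59, against 2.32). Median pairwise correlation was 0.938 within the 13, 0.921 within the 12 and 0.843 between them. The 2 arrays that define the split enter these correlations and the mean of the other controls, so part of that contrast is built in. Cyfluthrin replicate 8 exceeded replicate 1 in 6 of the 27, by 0.11 (contig_4390) to 0.95 (contig_4735), and lay below it in the other 21.

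Correlations here use each contig's deviations from its group means over the 16 arrays, which share their libraries and scaling, and they are given as descriptions. Over the 351 pairs of the 27 contigs the median correlation was 0.884 (0.491 to 0.988). It was 0.943 over cyfluthrin arrays alone and 0.782 over control arrays alone. The closest pair was contig_4879 and contig_2699 (0.988), followed by contig_4071 and contig_5795 (0.985) and by contig_3691 and contig_6271 (0.982). Contig_6094 followed the mean of the class least, with 0.742, and the other 26 had 0.886 to 0.982. Among the 13 contigs of small difference the median correlation over 78 pairs was 0.175 (−0.390 to 0.695), and between large and small it was 0.162.

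**Figure D4:**
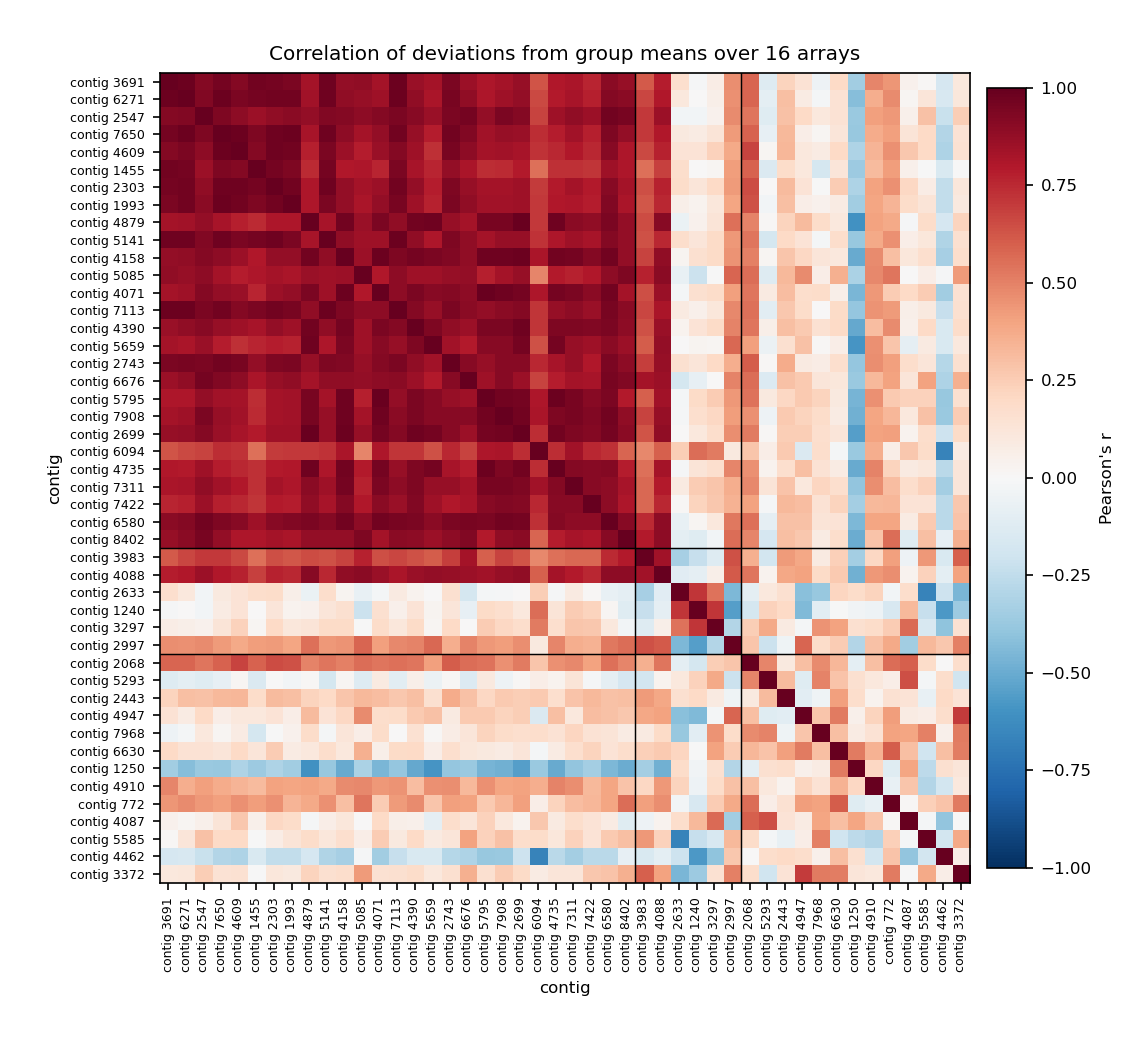
Pearson's r between contigs (both axes, in the order of differences) of their deviations from group means over the 16 arrays, from blue (−1) through white (0) to red (1); black lines separate the size classes. The block of 27 contigs of large difference has a median of 0.884, and the block of 13 of small difference a median of 0.175.

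Some contigs of the tight block have neighbouring numbers in the array design. Contig_4735, contig_4879 and contig_5659 were measured by probes of 1 design set whose numbers lie 1 to 3 apart, and their pairwise correlations were 0.960 to 0.971. They also had the 3 largest excesses of cyfluthrin replicate 8 over replicate 1, at 0.95, 0.72 and 0.90. Contig_7650 and contig_2743 lie 10 numbers apart in another set and had a correlation of 0.965. Whether such contigs are pieces of 1 transcript or hybridise to the same RNA was not tested, and probe sequences were not used here. Closer pairs without neighbouring numbers also occurred, such as contig_4879 and contig_2699 (0.988). The 46 contigs came from all 3 design sets, with 28 of 2713, 7 of 1651 and 11 of 1675 contigs that met the signal condition.

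The 6 contigs of middle difference did not follow 1 pattern. Contig_4088 had controls of 4.74 to 5.86 (median 5.41) and cyfluthrin arrays of 6.67 to 8.59 (median 7.66), and correlated with the mean of the large class at 0.872. Contig_3983 had controls of 2.55 to 4.0 (median 3.20) and cyfluthrin arrays of 4.29 to 6.88 (median 5.53), with a correlation of 0.698. Both were high on cyfluthrin replicates 1 and 2 and lowest on cyfluthrin replicate 4, as in the large class. The pair correlated with each other at 0.837.

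Contig_2633, contig_1240 and contig_3297 formed another set, with correlations of 0.711, 0.540 and 0.714 among themselves and of 0.06 to 0.15 with the mean of the large class. Contig_2633 had controls of 8.79 to 9.45 (median 9.08) and cyfluthrin arrays of 10.43 to 11.08 (median 10.85). Its gap of 0.975 was the widest of the middle class, and its SDs of 0.197 and 0.232 were close to each other. Contig_1240 (controls 9.38 to 10.59, cyfluthrin arrays 11.12 to 12.21) and contig_3297 (controls 6.60 to 7.84, cyfluthrin arrays 8.14 to 9.24) were both lowest on cyfluthrin replicate 7. Contig_2997 went with the first pair (0.636 with contig_3983 and 0.614 with contig_4088) and against the other set (−0.549 with contig_1240, −0.447 with contig_2633 and −0.294 with contig_3297). Its correlation with the mean of the large class was 0.472. It had controls of 5.10 to 5.83 and cyfluthrin arrays that divided into 4 at 6.45 to 6.55 and 4 at 7.33 to 7.57.

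In the 13 contigs of small difference the median gap between control and cyfluthrin arrays was 0.047 log2 units. Contig_2068 had the largest difference among them, 0.83, with controls of 8.77 to 9.17 (median 8.93) and cyfluthrin arrays of 9.41 to 10.04 (median 9.82). Contig_2443 had the widest gap, 0.369, with controls of 8.88 to 9.18 (median 9.05) and cyfluthrin arrays of 9.55 to 9.89 (median 9.59). Its cyfluthrin values were close together apart from replicate 1, at 9.89. At the other end contig_3372 had a difference of 0.33, with controls of 11.11 to 11.49 and cyfluthrin arrays of 11.54 to 11.92.

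Membership of the 13 depended on how arrays were scaled. With arrays scaled on their median in place of the 75th percentile, 0 of the 13 kept full separation, and 25 of the 27 and 4 of the 6 did. Without cyfluthrin replicate 7 under median scaling, 4 of the 13, 26 of the 27 and 6 of the 6 were separated. Of the 17 contigs that lost separation under median scaling, 14 had cyfluthrin replicate 7 as the lowest cyfluthrin array.

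Contigs of small difference also showed few shared movements. Contig_4947 and contig_3372 correlated best, at 0.695, followed by contig_5293 and contig_4087 at 0.645. Contig_2068 was the nearest of the 13 to the large class, with a correlation of 0.574 to its mean, and contig_1250 ran against it, at −0.444. Contig_1250 had controls of 9.34 to 9.94 (median 9.72) and cyfluthrin arrays of 9.99 to 10.41 (median 10.14), with cyfluthrin replicate 7 highest and replicate 8 lowest.

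For 3 contigs no control array was above background, so their differences depend on how dim control values are set. Under the scaling used here, control values below the lowest signal called above background on their array were raised to it. Higher control values were kept, although they too were not above background. Contig_5085 was then 12.2-fold higher with cyfluthrin, contig_6676 10.99-fold and contig_3983 4.78-fold. Before that step the values were 13.74-fold, 12.65-fold and 4.88-fold. The raised values are no strict lower bounds and hold for that scaling and background alone. With a floor of 1 unit the log2 differences were 4.42, 4.23 and 2.355 in the same order, so that contig_5085 exceeded contig_3691 (4.29). With a floor of 20 units they were 2.38, 2.15 and 1.20. With the normexp correction described next they were 1.16, 0.85 and 0.46. Measured means were 2.92 and 6.70 in contig_5085, 2.81 and 6.47 in contig_6676, and 3.23 and 5.51 in contig_3983, controls first. Of the other 43 contigs, 38 were above background on all 8 control arrays and 5 on 5 to 7 of them. With the 3 at these raised values the median difference of the 46, which 3 contigs can move little, remained 3.43.

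Dim contigs also depended on the background correction. With background corrected by the normexp model (offset 50) on median-pixel signals, differences were smaller, with a median of 2.0 over the 46 and 2.71 over the 27. The offset is added to every spot before the log2 step, which by itself makes log2 differences of dim spots smaller. Its part and that of the background were not separated. Full separation then held in 24 of the 46 (12 of the 27). In all 22 contigs that lost it, control replicate 2 was the highest control. That array had 7 spots of very high local background, up to 65535 units, where its median was 24.0. With the same offset and local background limited to each array's 99th percentile, 43 of the 46 (26 of the 27) were separated and the median difference was 2.27.

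Most contigs were measured by more than 1 spot per array. Of the 46 contigs, 38 had 2 spots and 8 had 1. In 35 of the 38 each spot alone gave full separation, among them 24 of 24 contigs of large difference. The exceptions were contig_4947, contig_6630 and contig_772, all of small difference. Both spots come from the same labelled RNA and are no replicates, and their average is the value that chose the contig, so these counts are a description.

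At the edge of the rule the choice turned on hundredths of a log2 unit. Contig_4462 was just inside, with the highest control and the lowest cyfluthrin array both at 9.03, and contig_4947 and contig_4910 followed with gaps of 0.0189 and 0.0284. Just outside were contig_7271, with a gap of −0.0035 despite a difference of 0.95, contig_1203 (gap −0.0058) and contig_3031 (gap −0.0131). Contig_1203 lacked values on 6 arrays, where its spots carried outlier flags. Contig_2512 was separated by 0.315 over the 7 cyfluthrin arrays where it had a value, but was above background on 6 of the 8 and is no member. It was named after its values were seen.

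Few other contigs had differences of this size. Of the 7506 non-members used in the slide fits, 1 had a difference of at least 3.01 and 45 had at least 1.56. The 1 was contig_1676, named after its values were seen, with controls of 2.73 to 5.63 and cyfluthrin arrays of 4.16 to 13.89. Its groups overlapped, and its 3 highest arrays were cyfluthrin replicates 3, 4 and 8 (13.89, 11.30 and 9.55), of which replicates 3 and 4 were the lowest cyfluthrin arrays for the large class. Its correlation with the mean deviation of the 10 contigs of largest difference was −0.552.

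The non-members most like those 10 by the same measure were contig_6287 (0.773), contig_4484 (0.727) and contig_6213 (0.688). Contig_6287 had controls of 3.09 to 5.01 and cyfluthrin arrays of 4.50 to 6.64, a difference of 1.47, and was above background on 3 control arrays. Contig_4484 had controls of 6.01 to 7.97 and cyfluthrin arrays of 6.80 to 9.12, a difference of 1.25. In both, 5 of 8 cyfluthrin arrays were above every control. Contig_6213 had a difference of only 0.27, so a like pattern over arrays also occurred with little difference between the groups.

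The slides allowed a comparison that the rule did not make. In a limma fit over 7551 contigs with treatment as covariate, 17.6% were higher on slide 2 and 9.18% lower at an adjusted p under 0.05. None of the 46 contigs passed (0 in either direction by limma, lowest adjusted p = 0.0864 for contig_4087), and 4 had an unadjusted p under 0.05. These were contig_1240 (−0.39), contig_2997 (0.40), contig_4087 (−0.18) and contig_4462 (0.17), as slide 2 minus slide 1 in log2 units. Full separation over both slides leaves little room for a slide difference in contigs of small difference. In the large class it leaves more room, but the standard error of the slide difference was 0.29 (contig_7311) to 0.60 (contig_1993). The count is therefore not read against the share over all contigs. In the large class the median slide difference was 0.19 (−0.61 to 0.85), against 0.08 over all contigs fitted.

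The rule fixes a difference above 0 on both slides for all 46 contigs, so only its size is described. In the large class the median difference was 4.01 on slide 1 and 3.49 on slide 2, and 24 of the 27 had the larger difference on slide 1. The middle class had 1.61 and 1.80, with 3 of 6 larger on slide 2, and the small class 0.43 and 0.55, with 8 of 13 larger on slide 2. Slide 2 minus slide 1, the median change of the difference was −0.52 in the large class and −0.04 over all contigs fitted. The share of all contigs with the larger difference on slide 1 was not computed. The term for slide by treatment was past the adjusted threshold in 0 of the 46 contigs and 0.0% (0 of 7548) of all contigs (limma, lowest adjusted p of a member 0.996). Unadjusted p was under 0.05 in 1 member, contig_5585, and in 241 contigs in all. For contig_5585 the difference was 0.61 on slide 1 and 0.23 on slide 2 (limma unadjusted p = 0.0333). The largest slide by treatment estimate was −1.35 (SE 0.90) in contig_8402, whose difference was 3.69 on slide 1 and 2.34 on slide 2. With 4 arrays per group on a slide, these tests do not show that differences were equal.

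**Figure D5:**
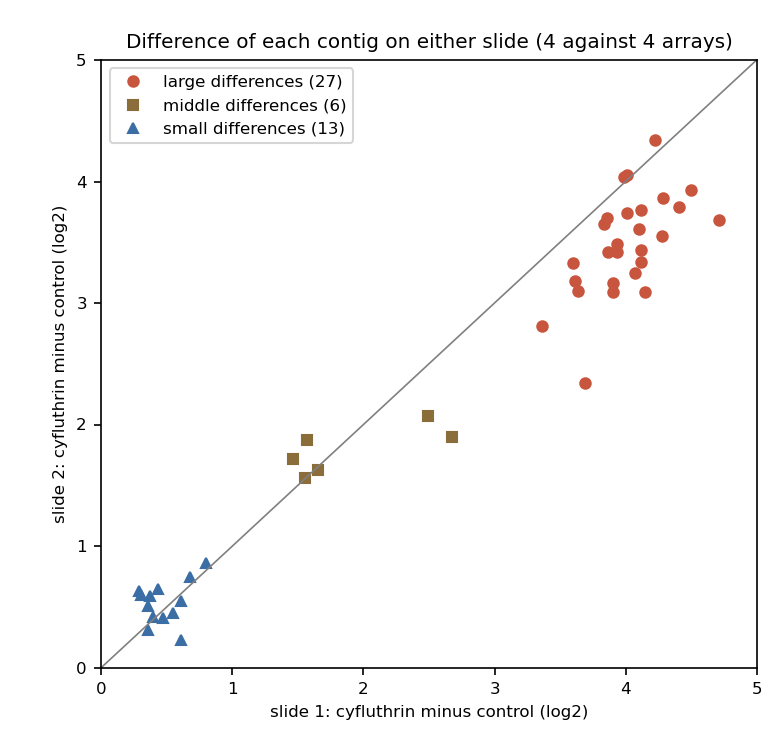
Difference of group means (cyfluthrin minus control, log2 units) of each contig on slide 1 (horizontal axis) and slide 2 (vertical axis), 4 arrays per group on each, with circles, squares and triangles for large, middle and small differences and a line where both are equal. Of the 27 circles, 24 lie below the line.

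The class of large difference was more spread on slide 1 in both groups. The SD over the 4 arrays was larger on slide 1 in 26 of 27 contigs among cyfluthrin arrays (medians 1.54 and 0.783) and in 26 of 27 among controls (medians 0.844 and 0.299). In the middle and small classes this held in 5 of 6 and 11 of 13 contigs among cyfluthrin arrays. Among controls it held in 2 of 6 and 5 of 13. The share over all contigs was not computed. The 27 contigs share their arrays and 1 pattern, so the counts are not separate observations. The exception among cyfluthrin arrays was contig_4735, with 1.11 and 1.13. In contig_3691 the SD over cyfluthrin arrays was 2.02 on slide 1 and 0.805 on slide 2, and in contig_6271 it was 2.005 and 0.71 (n = 4 each). On slide 1 cyfluthrin replicates 1 and 2 of contig_3691 were at 12.78 and 12.42 and replicates 3 and 4 at 9.45 and 8.84. On slide 2 its 4 cyfluthrin arrays ran from 10.73 to 12.43.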

How the data were processed

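The 16 arrays were grouped by their titles, 8 per group. The deposited files hold linear intensity and scanner flags for each spot. Feature Extraction 10.7.3.1 read the images, per the file headers, while the submitters' processing notes name version 9.1. The authors' table of log2 values of the same arrays, centred per probe, was used as an alternative; how it was normalized is not given in the sources used.

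Processed intensity of 15208 non-control spots was scaled so that each array's 75th percentile equalled the mean of the 16 (454.9 units), floored at 5 units and log2-transformed. Spots with an outlier flag (30 to 88 per array) were left out, and spots of a probe were averaged. A probe counted as above background where at least 0.5 of its spots on the array were called well above it (6234 to 8478 probes per array). Slide terms were fitted with limma 3.58.1 (lmFit, eBayes, R 4.3.3; Python 3.11.15 elsewhere) on probes above background on at least 4 of 8 arrays of either group, with p-values adjusted by Benjamini-Hochberg over all of them at a threshold of 0.05, after the script was tested on simulated data. Of these 7552 probes, 7551 gave a slide estimate and 7548 an interaction.

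Contigs, lists and the naming rule were chosen with earlier results of these data known. The rule names the 10 contigs of largest difference, the 5 of widest gap, the 5 of highest cyfluthrin mean, the 3 of narrowest gap, the 3 each of largest and smallest SD over cyfluthrin arrays, those with no control above background, 3 non-members just outside and 3 most alike. Other contigs are named as examples chosen after their values were seen. Alternatives covered scaling, background, floor, flags, filter, slides, pairing, array weights and single arrays left out. Normexp used median-pixel signals, since mean-pixel signals were not used here.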

Additional observations from a re-analysis of the deposited data

Results flagged for a closer look

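Among 100 groups of 8 arrays checked for a single extreme array, 2 had one, where chance gives about 1 in 20. In contig_2443 the value on cyfluthrin replicate 1 was 9.89, against 9.71 on the nearest cyfluthrin array, and all others lay between 9.55 and that value. The 75th percentile of unscaled signal on cyfluthrin replicate 7 was 950 units, against 577 on the nearest cyfluthrin array. The part of that array in the separation of single contigs under median scaling is given above.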

How the results depend on the processing

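The 46 separated contigs became 30 with arrays scaled on the median, 223 on slide 1 alone, 472 on slide 2 alone and 203 with a replicate block (all 8 paired differences above 0). The last 3 hold the 46 by construction, as fewer comparisons have to hold. Leaving out 1 array gave 47 to 70, the highest without cyfluthrin replicate 3, and these sets also hold the 46 by construction. The other settings gave 31 (normexp) to 65 (arrays centred on slide means), with 49 in both quantile normalization and the authors' table. The median difference of 3.43 became 2.0 with normexp and 2.27 with limited local background, and 3.09 to 3.66 otherwise (3.26 to 3.59 with 1 array left out). All 46 differences stayed above 0 in these settings. Full separation fixes that sign in advance for slides alone, slide centring, the replicate block and 1 array left out. The count of 0 members that differ between slides became 6 with median scaling, 2 with array weights and 0 to 1 with 1 array left out (1 without control replicate 5, cyfluthrin replicate 2 or cyfluthrin replicate 5). Over all contigs the shares called were 39.2% with median scaling, 30.4% with array weights and 21.8% to 30.7% with 1 array left out. As above, the counts are not read against these shares. The slide by treatment count was 0 in each setting run. Limited local background and median scaling without cyfluthrin replicate 7 were added after seeing the data. Over 10 settings, 11 of 27 large, 1 of 6 middle and 0 of 13 small differences kept full separation in all. These settings covered scaling, background (limited local background included), floor, flags, the authors' table and centring on slide means. Same-numbered arrays share a slide and a slide column. Their deviations correlated at −0.0191 to 0.567, above 0.1 in 6 of 8 pairs, and 3 of 8 controls correlated best with their own number. As not every pair was above 0.1, the numbers were not taken to pair samples. Signal over background limits the 8 contigs dim on some control arrays.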
